A study of Rattus norvegicus with 6 samples.

Results

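In all, 8 genes of cholesterol synthesis and its control were followed in kidneys, with renal cortex from 6 male rats of the Sprague-Dawley strain. They were chosen by name, and their values were read from every array probe whose RefSeq accession belongs to Hmgcs1, Idi1, Fdps, Fdft1, Sqle, Lss, Cyp51 or Insig1. This gave 21 probes of 8 genes, out of 61537 probes and 15645 named genes on the array, and all 21 were well above background on all 6 arrays. Of the 8 genes, 7 code for enzymes of the pathway and 1, Insig1, for a sterol sensor, so none is a receptor for cholesterol uptake. The rats were Crl:CD(SD) animals bought at 5 weeks of age and fed a basal diet. The 3 rats of the vehicle group received corn oil and the 3 rats of the DNPT group received N,N'-dinitrosopentamethylenetetramine (an N-nitroso compound), dosed at 200 mg/kg/day, each for 4 weeks. RNA of each rat was hybridised to its own 1-colour Agilent array. Slide 1, scanned on day 1, carried all 3 vehicle rats and DNPT replicate 1, and slide 2, scanned on day 2, carried DNPT replicates 2 and 3. Levels are log2 values of the processed signal relative to the 75th percentile of each array, with the mean ± SD of 3 rats (n = 3), and a gene is given by its brightest probe. A change is the DNPT mean less the vehicle mean, with its SE (standard error). The tissue is a mixture of cells, so fewer cells of a type and less RNA per cell cannot be told apart.

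Cells make cholesterol from acetyl-CoA through mevalonate, isoprenoid diphosphates, squalene and lanosterol. When membrane sterol is low, the escort protein SCAP carries the precursor of the transcription factor SREBP-2 to the Golgi, where proteases release the active factor, and it switches on nearly every gene of the pathway. When sterol is high, INSIG proteins hold SCAP in the endoplasmic reticulum, and because Insig1 is itself an SREBP target, its mRNA commonly follows that of the enzymes. SREBP proteins act at sterol regulatory elements (SRE) together with NF-Y, which binds the CCAAT box, and Sp1, which binds the GC box. The proximal tubule, the main part of the renal cortex, both makes cholesterol and takes it up from lipoproteins.

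The promoters of 4 of the genes are shown because the genes share these known inputs, and because Hmgcs1 and Idi1 had the largest changes of opposite sign. Each runs from 250 bases before to 50 bases after the RefSeq transcription start in GRCr8, 5′ to 3′ on the strand of the gene, and capitals mark matches on either strand to the motifs searched. Hmgcs1 lies at chr2:53382054-53382353 (plus strand), Idi1 at chr17:66547475-66547774 (minus strand), Fdps at chr2:176804767-176805066 (minus strand) and Insig1 at chr4:8057720-8058019 (minus strand).
Hmgcs1: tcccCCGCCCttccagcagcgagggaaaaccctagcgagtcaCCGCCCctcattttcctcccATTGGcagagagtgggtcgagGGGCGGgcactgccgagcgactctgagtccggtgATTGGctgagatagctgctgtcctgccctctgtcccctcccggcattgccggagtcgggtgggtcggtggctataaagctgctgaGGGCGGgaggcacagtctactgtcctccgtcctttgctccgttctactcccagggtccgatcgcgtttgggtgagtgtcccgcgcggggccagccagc
Idi1: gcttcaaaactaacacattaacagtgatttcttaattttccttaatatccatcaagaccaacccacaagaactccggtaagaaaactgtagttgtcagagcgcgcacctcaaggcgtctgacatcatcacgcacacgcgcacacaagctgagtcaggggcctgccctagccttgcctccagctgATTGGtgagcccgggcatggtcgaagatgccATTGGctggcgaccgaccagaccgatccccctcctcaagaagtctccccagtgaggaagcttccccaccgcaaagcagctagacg
Fdps: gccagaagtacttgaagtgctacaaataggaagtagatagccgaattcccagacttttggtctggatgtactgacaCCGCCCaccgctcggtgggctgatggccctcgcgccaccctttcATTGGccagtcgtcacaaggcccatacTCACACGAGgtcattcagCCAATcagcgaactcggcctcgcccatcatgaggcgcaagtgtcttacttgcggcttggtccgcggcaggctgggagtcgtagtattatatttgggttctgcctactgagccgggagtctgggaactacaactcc
Insig1: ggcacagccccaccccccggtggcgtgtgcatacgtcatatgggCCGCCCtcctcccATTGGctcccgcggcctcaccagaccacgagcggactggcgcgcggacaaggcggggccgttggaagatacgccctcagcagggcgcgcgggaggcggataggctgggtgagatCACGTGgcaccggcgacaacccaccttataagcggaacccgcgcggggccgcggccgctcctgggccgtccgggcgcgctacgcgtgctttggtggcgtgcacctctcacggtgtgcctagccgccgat

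The motifs were the SRE consensus TCACNCCAC, the SRE-3 core TCACACGAG, the CCAAT box CCAAT, the GC box GGGCGG and the E-box CACGTG, a site of clock factors and of SREBP. The table used held promoters for 6 of the 8 genes. A CCAAT box was present in 5 of the 6, against 37.5% of the 33469 rat promoters of the same length, and a GC box also in 5 of the 6, against 33.1%. Cyp51 was the promoter of the 6 without a CCAAT box and Idi1 the promoter without a GC box. Fdps carried the SRE-3 core, first base 103 bases before the start, between CCAAT boxes that begin 130 and 85 bases before it. That core occurred in 0.123% of all promoters. Insig1 held the only E-box of the 6 (6.42% of all promoters), 79 bases before the start. The SRE consensus was in none of the 6 windows and in 1.12% of all promoters. Matches of CCAAT and GC boxes did not overlap each other or the other motifs in these 4 sequences. A match of letters is not evidence of binding.

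After 4 weeks of DNPT the cholesterol synthesis genes stood close to their vehicle levels. The 8 changes ran from -0.21 (Idi1) to 0.28 (Hmgcs1) on the log2 scale, 6 of them positive and 2 negative, with a median of 0.14 against 0.01 over all 34915 features tested. In size they were ordinary, with a median absolute change of 0.16 for the 8 genes and 0.16 for all features. By limma with Benjamini-Hochberg adjustment over all features, 0 of the 8 genes passed an adjusted p of 0.05, as did 0% of all features, and their adjusted p-values were 0.42 to 0.71. An unadjusted p under 0.05 was reached by 0 of the 8 genes and by 12.1% of all features (5.95% higher and 6.16% lower). In this fit, which has no term for slide, the 95% confidence intervals of all 8 genes lay between -0.49 and 0.56. The widest bounds in it were 1.41-fold lower and 1.47-fold higher. With slide as a fixed block, which rests on DNPT replicate 1, the SE of each of the 8 genes was larger. The bounds given here therefore take no account of slide. Over all features the count of 0 became 3 without vehicle replicate 2 and 640 without DNPT replicate 1, with 0 of the 8 genes called in either case.

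Every DNPT rat exceeded every vehicle rat in 1 of the 8 genes (Hmgcs1), which 11.9% of all features did, and below them in 2 of the 8 (Idi1 and Fdft1), which 8.32% did (20.2% for both directions together). The groups overlapped in the other 5 genes. An exact permutation test of 3 against 3 rats cannot go below p = 0.1.

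**Figure D1:**
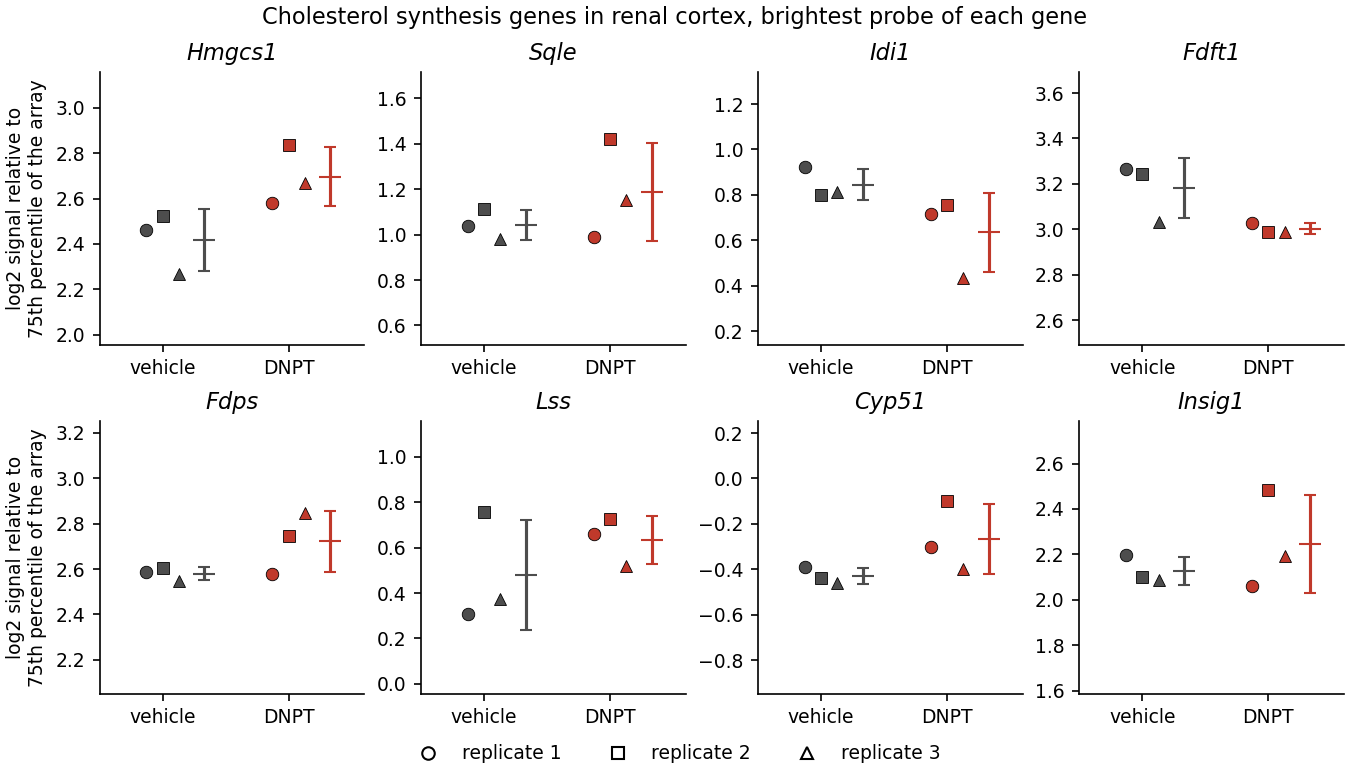
Log2 signal of the brightest probe of each of the 8 genes (y axis, relative to the 75th percentile of the array; every panel spans the same width of 1.2 log2 units) in vehicle and DNPT rats (x axis). Symbols are single rats, and the bar beside them is the mean ± SD of the 3 rats. Hmgcs1 is the panel in which all DNPT rats lie above all vehicle rats, and Idi1 and Fdft1 are those in which they lie below.

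Of the 8 genes, Hmgcs1 had the largest positive change and Idi1 the largest negative one. Hmgcs1, which condenses acetoacetyl-CoA and acetyl-CoA to HMG-CoA, was at 2.46, 2.52 and 2.27 in vehicle replicates 1 to 3 and at 2.58, 2.84 and 2.67 in DNPT replicates 1 to 3. All DNPT rats were higher, and the gap between the highest vehicle and the lowest DNPT rat was small beside the spread within each group. The means were 2.42 ± 0.13 and 2.70 ± 0.13, a change of 0.28 (SE 0.11, limma adjusted p = 0.415) or 1.21-fold, with a 95% interval of 0.998 to 1.47-fold. A larger absolute change was seen in 27.9% of all features. Idi1, the isomerase that turns isopentenyl diphosphate into dimethylallyl diphosphate, was at 0.92, 0.80 and 0.81 in vehicle rats and at 0.71, 0.76 and 0.43 in DNPT rats. All DNPT rats were lower, and DNPT replicate 3 stood apart from the other 2, which lay just under the vehicle range. The change of Idi1 was -0.21 (SE 0.11, limma adjusted p = 0.471), 1.16-fold lower.

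The next enzymes build farnesyl diphosphate and squalene. Fdps, which makes farnesyl diphosphate, the last intermediate shared with protein prenylation, dolichol and ubiquinone, was at 2.59, 2.60 and 2.55 in vehicle rats and at 2.58, 2.75 and 2.84 in DNPT rats. The vehicle rats were nearly equal, DNPT replicate 1 was among them, and both DNPT rats of slide 2 were higher. The change was 0.14 (SE 0.10, limma adjusted p = 0.542). Fdft1, squalene synthase, the first step committed to sterols, was at 3.27, 3.25 and 3.03 in vehicle rats and at 3.03, 2.99 and 2.99 in DNPT rats. The DNPT rats were tightly grouped (SD 0.02) at the level of the lowest vehicle rat, which was 3.0302 against 3.0297 in the highest DNPT rat, so the separation of the groups rests on a difference far below the spread. The change was -0.18 (SE 0.09, limma adjusted p = 0.467).

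Sqle, squalene epoxidase, a rate-limiting step of the sterol branch, was at 1.04, 1.11 and 0.98 in vehicle rats and at 0.99, 1.42 and 1.15 in DNPT rats. DNPT replicate 2 stood above all other rats, and DNPT replicate 1 lay within the vehicle range. The change was 0.14 (SE 0.13, limma adjusted p = 0.642). Lss, which closes the rings to lanosterol, was at 0.31, 0.76 and 0.37 in vehicle rats and at 0.66, 0.73 and 0.52 in DNPT rats. It had the widest vehicle spread of the 8 genes, 0.45 from lowest to highest, and its highest rat was vehicle replicate 2. The change was 0.16 (SE 0.15, limma adjusted p = 0.651).

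Cyp51, the lanosterol demethylase, was at -0.39, -0.44 and -0.46 in vehicle rats and at -0.30, -0.10 and -0.40 in DNPT rats. The vehicle rats were within 0.07 of each other, and only DNPT replicate 3 overlapped them. The change was 0.16 (SE 0.10, limma adjusted p = 0.521). Insig1 was at 2.20, 2.10 and 2.08 in vehicle rats and at 2.06, 2.48 and 2.19 in DNPT rats. DNPT replicate 2 was again the highest, while DNPT replicate 1 was the lowest of all 6 rats. The change of Insig1 was 0.12 (SE 0.13, limma adjusted p = 0.709), the smallest of the 8.

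The DNPT rats differed among themselves. In the brightest probes, DNPT replicate 2 was the highest of the 6 rats in Hmgcs1, Sqle, Cyp51 and Insig1, 4 of the 8 genes. The same held for 19.1% of all features. Among the other probes of these genes, that rat was again highest in the second Sqle probe (0.33) and an Insig1 probe (0.48). That rat was not the highest in either other Hmgcs1 probe, the second Cyp51 probe or the remaining Insig1 probes. Against the vehicle mean, DNPT replicate 2 was 0.42 higher in Hmgcs1, 0.38 in Sqle, 0.35 in Insig1 and 0.33 in Cyp51. The median over the 8 genes was 0.29 in DNPT replicate 2, 0.05 in DNPT replicate 3 and -0.03 in DNPT replicate 1. In the vehicle rats that median lay between -0.05 and 0.04, but the vehicle mean contains those rats, which narrows their range. DNPT replicate 1 shares slide 1 with the vehicle rats, and within that slide the changes were 0.18 for Lss, 0.16 for Hmgcs1, 0.13 for Cyp51, -0.0026 for Fdps, -0.054 for Sqle, -0.069 for Insig1, -0.13 for Idi1 and -0.15 for Fdft1, which is 3 positive and 5 negative. Slide 2 holds no vehicle rat, so the higher values of Sqle and Fdps in both of its rats and the slide cannot be told apart. The same limit holds for Insig1, where DNPT replicate 2 (2.48) lay above all vehicle rats but DNPT replicate 3 (2.19) lay within their range.

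**Figure D2:**
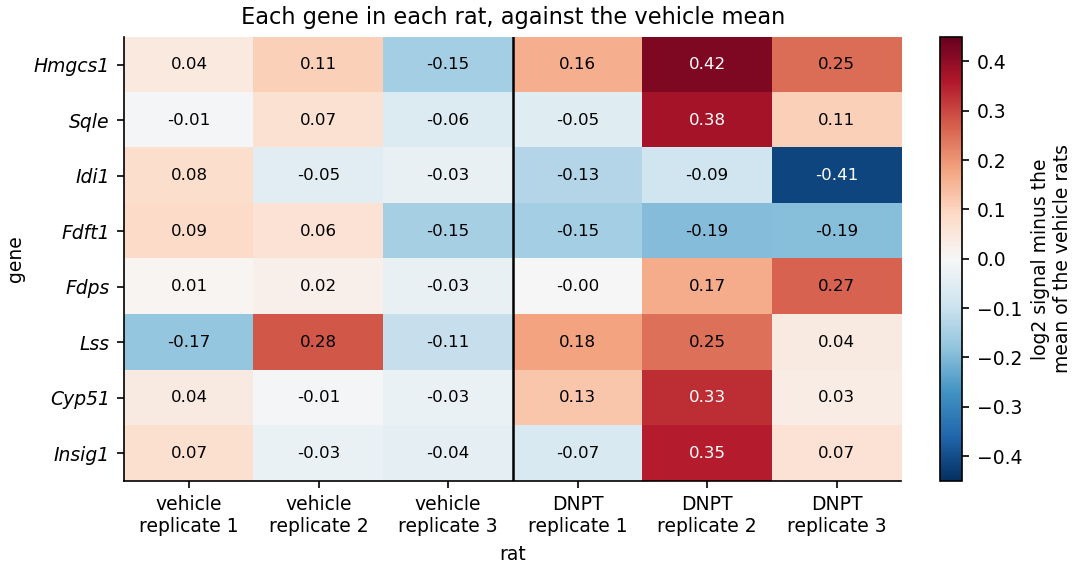
Log2 signal of the brightest probe of each gene (rows) in each rat (columns) minus the mean of the 3 vehicle rats. The value is printed in the cell, and red is higher and blue lower. The column of DNPT replicate 2 holds the highest values for Hmgcs1 (0.42), Sqle (0.38), Cyp51 (0.33) and Insig1 (0.35), and the rows of Idi1 and Fdft1 are negative in all 3 DNPT rats.

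The genes fell into profiles that can be compared without regard to group. With each gene centred on its own mean over the 6 rats, Sqle and Insig1 were the most alike of the 28 pairs, with a root mean square difference of 0.05 log2 units, followed by Cyp51 with Insig1 (0.08) and Cyp51 with Sqle (0.09). Hmgcs1 and Idi1 were the least alike (0.28). Idi1 and Fdft1, the genes lower in every DNPT rat, differed from each other by 0.12. Cyp51 was nearest to the mean profile of all 8 genes (0.07) and Idi1 farthest (0.17), where the median of the other named genes was 0.17. Each of the 8 genes is part of that mean and the other genes are not, so the values are not alike. The mean profile varied little itself (SD 0.09), so a gene that varies little also lies near it. Among 12668 other named genes, the 5 closest to that mean profile over the 6 rats were Got1 (0.023), Traf3ip2 (0.028), Ddx20 (0.031), Rabep1 (0.031) and Hps6 (0.031). None of these 5 belongs to the pathway, and their changes were 0.03 to 0.11.

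The genes had 2 to 4 probes each, and 6 of the 8 genes had probes with changes of both signs. Of the 21 probes, 11 had positive and 10 negative changes, with a median of 0.0049 (0.0083 over all probes tested), from -0.22 to 0.28. The 13 probes that were not the brightest of their gene had a median change of -0.01, with 5 positive and 8 negative. The 3 DNPT rats lay above the vehicle rats in 1 probe of the 21 (11.4% of all 44305 probes tested) and below them in 4 (8.43% of all probes). Of the 21 probes, 0 passed the limma threshold with every probe as its own feature.

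Idi1 and Lss were the genes whose probes all had the same sign. The 3 Idi1 probes changed by -0.22, -0.21 and -0.08, and the first of these, at 0.92, 0.75 and 0.67 in vehicle and 0.62, 0.65 and 0.40 in DNPT rats, also separated the groups. The 2 Lss probes changed by 0.16 and 0.28. In Hmgcs1 the brightest probe gave 0.28 but the others 0.08 (SE 0.11) and -0.03 (SE 0.17), so the separation seen for that gene was confined to 1 of its 3 probes. The second Hmgcs1 probe was at 0.77, 0.87 and 0.69 in vehicle and 0.96, 0.93 and 0.66 in DNPT rats, where DNPT replicate 3 was the lowest of all rats. The Fdft1 probes disagreed in sign, at -0.18 (SE 0.09) and 0.11 (SE 0.13). The second probes of Sqle and Cyp51 were at -0.0033 (SE 0.10) and -0.01 (SE 0.12), and the 3 Fdps probes at 0.14, 0.12 and -0.01. The 4 Insig1 probes ran from 0.12 in the brightest to -0.18 in the dimmest, and that dimmest probe, at -2.33, -2.36 and -2.36 in vehicle and -2.49, -2.42 and -2.69 in DNPT rats, lay lower in every DNPT rat.

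**Figure D3:**
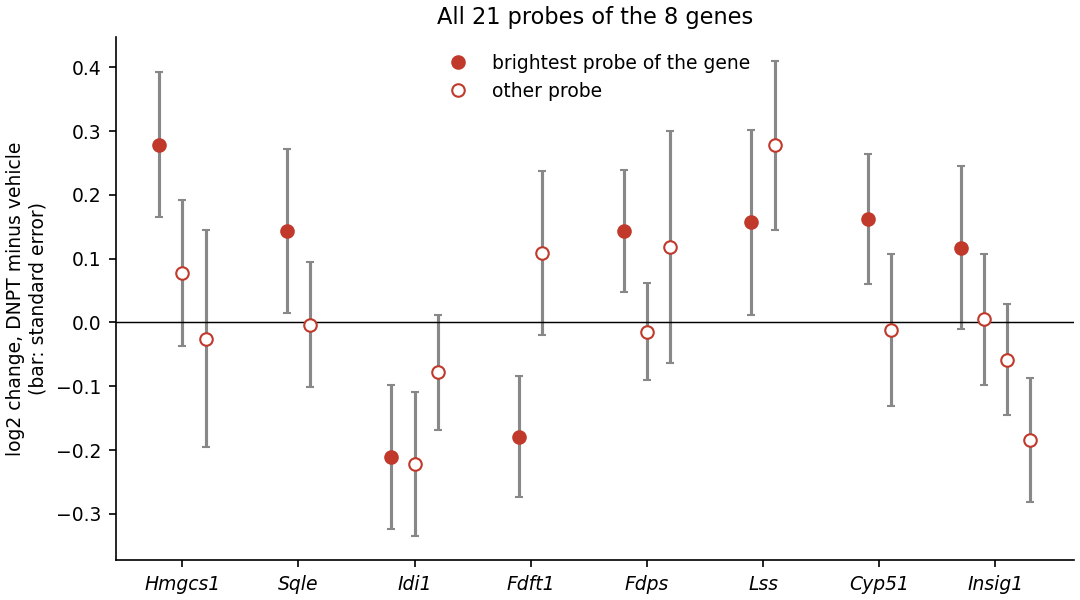
Log2 change, DNPT minus vehicle (y axis), of all 21 probes by gene (x axis), in order of brightness within each gene; bars are standard errors, filled symbols the brightest probe. Probes of Idi1 all lie below 0 (-0.22 to -0.08) and those of Lss above it (0.16 and 0.28), while the other 6 genes have probes on both sides.

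The rest of the pathway was read through 8 lists of related genes, of which 60 of 69 genes were tested. Of the 60 genes, 0 passed the adjusted threshold, 4 reached an unadjusted p under 0.05 as higher and 3 as lower (5.95% and 6.16% of all features), and the median change was 0.02, with 32 positive and 28 negative (51.9% positive over all features). All DNPT rats lay above all vehicle rats in 9 of the 60 and below them in 5, beside 11.9% and 8.32% of all features.

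In the early mevalonate steps, all 5 genes were tested, 3 with positive and 2 with negative changes (median 0.23). Mvk, mevalonate kinase, was at -1.48, -1.49 and -1.62 in vehicle rats and at -1.28, -1.30 and -1.29 in DNPT rats, a change of 0.24 (SE 0.08, limma adjusted p = 0.393). The enzymes that follow it, Pmvk (-0.20, SE 0.08) and Mvd (-0.13, SE 0.08), were instead lower in every DNPT rat. Consecutive steps of the pathway, Mvk, Pmvk, Mvd, Idi1, Fdps, thus had changes of both signs and of similar size.

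Among the late sterol steps, 8 of 9 listed genes were tested, 6 with positive and 2 with negative changes (median 0.09). Dhcr7, which makes cholesterol from 7-dehydrocholesterol, had the largest change of the synthesis enzymes. It was at 2.50, 2.19 and 2.06 in vehicle rats and at 1.44, 2.05 and 1.41 in DNPT rats, so that DNPT replicate 2 lay just under the vehicle range and the others well below it (-0.62, SE 0.22, limma adjusted p = 0.398). Ebp, a sterol isomerase (0.21, SE 0.08), and Hsd17b7, a 3-keto reductase (0.21, SE 0.08), lay higher in every DNPT rat, but the second probe of Hsd17b7 had a change of 0.0017.

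For sterol sensing and SREBP processing, 7 of 9 listed genes were tested, 4 with positive and 3 with negative changes (median 0.10). Srebf1 is not analysed here. Srebf2, which codes for SREBP-2, was at 1.71, 1.74 and 1.70 in vehicle rats and at 1.95, 1.88 and 1.84 in DNPT rats. All DNPT rats, the rat of slide 1 included, were higher (0.18, SE 0.08, limma adjusted p = 0.421), yet its other 2 probes had changes of 0.03 and -0.01. Scap had a change of 0.22 (SE 0.12) with overlapping groups. Insig2, the second INSIG, was at -0.40, -0.39 and -0.22 in vehicle rats and at -0.47, -0.57 and -0.54 in DNPT rats (-0.19, SE 0.09, limma adjusted p = 0.440). Insig2 lay lower in every DNPT rat, whereas its relative Insig1 overlapped between groups in its brightest probe. The dimmest Insig1 probe also lay lower in every DNPT rat (-0.18, SE 0.10).

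Uptake and transport genes were tested in 11 of 13 cases, 9 with positive and 2 with negative changes (median 0.09). Vldlr, a lipoprotein receptor, had the smallest adjusted p of the 60 genes and was at -2.05, -2.18 and -2.24 in vehicle and at -2.47, -2.36 and -2.53 in DNPT rats (-0.30, SE 0.09, limma adjusted p = 0.384). Npc1, which exports cholesterol from lysosomes, had a change of 0.26 (SE 0.13), but its 7 probes ran from -0.40 to 0.26. Osbp, an oxysterol-binding exchanger, was at 0.15 (SE 0.10).

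The branches that leave the pathway were tested in 6 of 7 genes, 4 with positive and 2 with negative changes (median 0.10). Changes were 0.21 (SE 0.10) for Dhdds and -0.44 (SE 0.37) for Nus1, the subunits of the dolichol synthase, and 0.14 (SE 0.08) for Pdss2, of ubiquinone synthesis. Nus1 was split by slide, at 4.44, 4.44 and 3.88 in vehicle rats and 4.59 in DNPT replicate 1, but 3.49 and 3.35 in DNPT replicates 2 and 3, and its other 2 probes had changes of 0.10 and -0.06.

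Genes of sterol export, storage and oxidation came next. In the LXR list 7 of 8 were tested, 3 with positive and 4 with negative changes (median -0.03). Abca1, the cholesterol exporter, was at -0.56 (SE 0.24, limma adjusted p = 0.419), the receptor gene Nr1h2 at 0.21 (SE 0.09) and Abcg1 at 0.29 (SE 0.18). For esterification, hydrolysis and oxidation, 6 of 7 were tested, 5 with negative changes (median -0.22), among them Ch25h, an oxysterol-forming hydroxylase (-0.59, SE 0.26), Lipa, the lysosomal lipase (-0.19, SE 0.09), and Cyp7b1, an oxysterol hydroxylase (-0.25, SE 0.16). Of 11 genes of SREBP-1 driven fatty acid synthesis, 10 were tested and 8 had negative changes (median -0.11), whereas the elongase Elovl6 lay higher in every DNPT rat (0.30, SE 0.11), with 0.28 in its second probe. Acly was at -0.19 (SE 0.11), and the probes of Acaca disagreed, at -0.30 and 0.28.

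**Figure D4:**
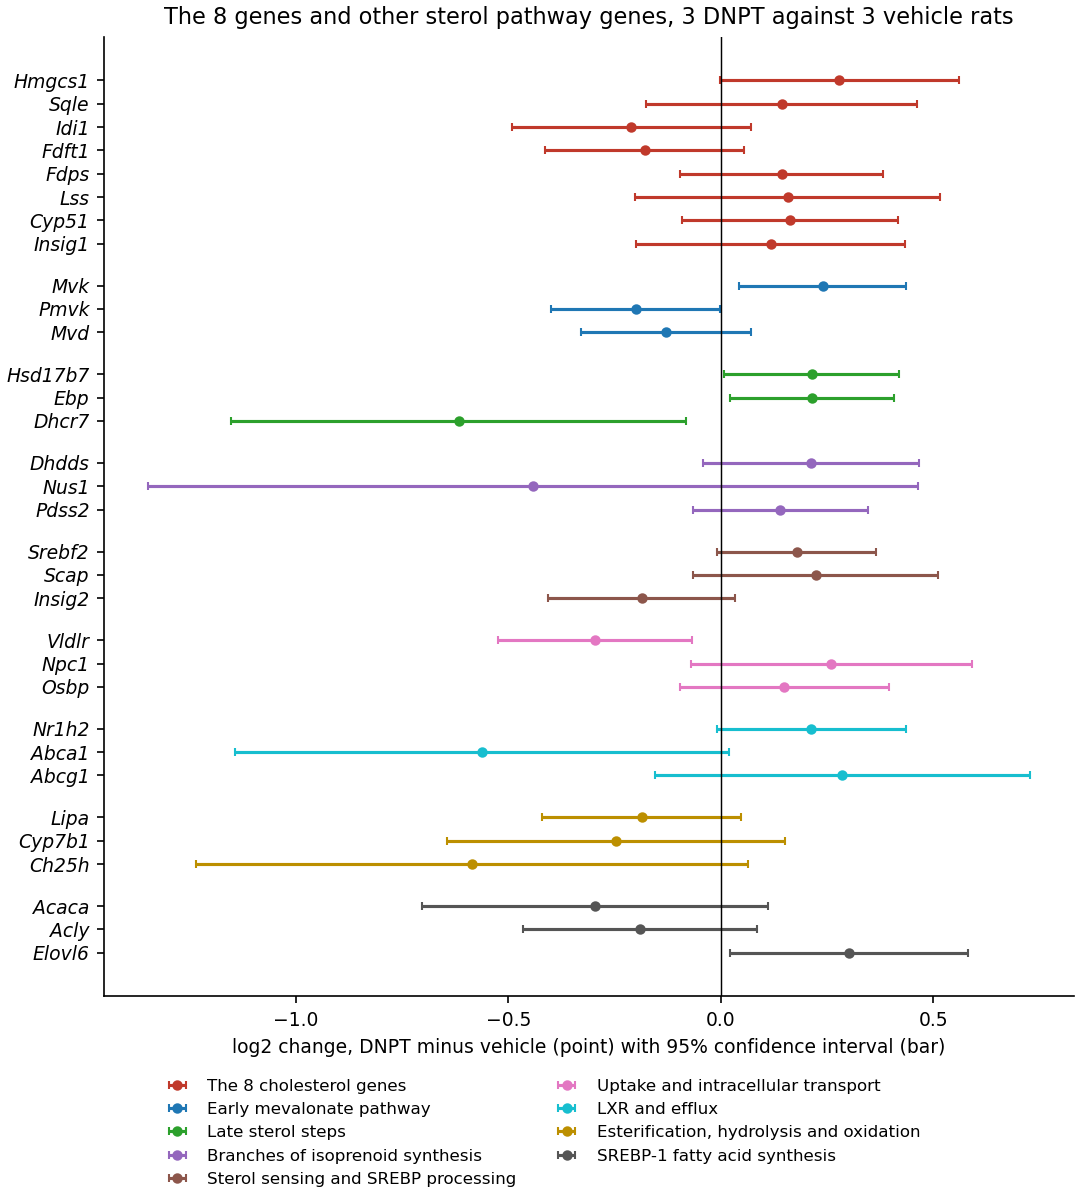
Log2 change, DNPT minus vehicle (x axis; points, with bars for the 95% confidence interval), of the 8 genes and of up to 3 genes per list with the smallest p (y axis), coloured by list. The intervals of all 8 genes include 0. Those of Mvk, Pmvk, Hsd17b7, Ebp, Dhcr7, Vldlr and Elovl6 do not, although no gene shown passed the adjusted threshold.

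The tissue carried the markers of renal cortex. All 6 proximal tubule genes were well above background. Their log2 summed level was 10.40 to 10.57 in vehicle and 10.56 to 10.79 in DNPT rats, highest in DNPT replicate 2. Miox, Slc34a1 and Slc22a6 were highest in that rat. Lrp2 was instead highest in DNPT replicate 1 (6.57), Slc5a2 in DNPT replicate 3 (7.70) and Aqp1 in vehicle replicate 2 (6.81). Adrenal cortex, a tissue next to the kidney that makes and imports much cholesterol, had 4 of 8 marker genes well above background on some array, while Cyp11b1, Cyp11b2, Mc2r and Nr5a1 were not above it on any. The summed level of the adrenal list was -0.59 to -0.01 in vehicle and -0.47 to 0.14 in DNPT rats, also highest in DNPT replicate 2. Hsd3b1 and Cyp21a1 made up most of this sum. In DNPT replicate 2 Hsd3b1 was at its highest (-0.62), while Cyp21a1 (-1.59) and Cyp11a1 (-4.61) lay within their vehicle ranges. Star was also highest there (-4.38), but was well above background on only 1 array of each group. Liver transcripts (6 of 7 above background, without Cyp7a1) varied from -0.01 to 1.99 in vehicle and from -0.07 to 4.83 in DNPT rats, with Alb at 3.76 in DNPT replicate 3 and -4.73 in DNPT replicate 2. Red blood cell markers (4 of 4) were at 8.64 to 8.96 in vehicle and 9.05 to 9.22 in DNPT rats, and lymphocyte markers (4 of the 4 with a probe) at 0.04 to 0.18 and -0.36 to -0.05. Cd3d made up most of the lymphocyte sum (change -0.35, SE 0.11), while Cd79b had the opposite sign (1.14, SE 0.20), with no value in DNPT replicate 2, where its spot was left out as an outlier. Summed levels of macrophage markers (5 of 5) were 6.09 to 6.39 and 5.77 to 6.16, and those of fat (4 of the 5 with a probe, without Lep) -0.04 to 0.70 and -0.05 to 0.59. Thick ascending limb (2 of 2) was at 8.09 to 8.38 and 7.86 to 8.33, podocytes (3 of 3) at 4.72 to 4.91 and 4.70 to 5.12, and the collecting duct marker Aqp2 at 6.53 to 6.81 and 6.07 to 6.59. The circadian genes Dbp (3.28 ± 0.04 in vehicle and 6.14 ± 0.45 in DNPT rats) and Bmal1 (1.67 ± 0.10 and -1.18 ± 0.94) differed by far more than any of the 8 genes, the labels give no time of day, and DNPT replicate 2 had the smallest departure of the 3 DNPT rats in both (5.67 for Dbp and -0.17 for Bmal1). The part of these cell types and of the clock in the values of the cholesterol genes was not tested.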

How the data were processed

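Total RNA of 6 renal cortex samples was measured on 1-colour Agilent arrays. Per the submitters' processing notes the scans were read with Agilent Feature Extraction 10.7. Per the file headers, the deposited scanner output gives a background-corrected intensity per spot. In the deposited value table each array is a linear ratio, the processed signal over a constant near its 75th percentile (100% of probes with a ratio above 1 within 0.5%). How it was made is not given in these sources. Its column medians were 0.112 to 0.116.

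Control spots and 113 outlier values were left out and saturated spots kept. Processed signals were divided by the 75th percentile of their array and put on the log2 scale. Probes well above background on at least 3 of 6 arrays, with at least 2 values per group, were tested (44305 of 61537). Between 42116 and 45167 probes per array were well above background, and the number of arrays limits precision. Accessions were matched without versions to RefSeq genes of GRCr8 (28206 probes with 1 gene, 0 with several, 33331 with none). A gene was represented by its brightest tested probe, which gave 34915 features, 12687 of them named genes. The model compared both groups in limma 3.58.1 (lmFit, eBayes; R 4.3.3), with no covariate and a two-sided test, and p-values were adjusted by Benjamini-Hochberg over every feature (threshold 0.05). The labels describe 3 biological replicates per group as separate animals.

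Named were the 8 genes with every probe, Srebf2 and Insig2, up to 3 genes per list with the smallest p, the 5 genes nearest to the mean profile, Dbp, Bmal1 and Alb. Srebf1, also in the rule, had no matched probe. Other genes in the text are markers, named as absent or beside the summed level of their list after their values were seen. Aqp2 was the only collecting duct marker listed. The genes and lists were chosen with earlier results of these data known. Alternatives were other scalings, background correction, filters, probe rules, fits, blocks, and samples left out. The plan named the mean spot signal for normexp, and the median was used. The fit was first tested on simulated data without a slide effect. It called 40.7% of the features given a log2 change of 1 in either direction, and 76.0% of those given a change of 2. Promoters are RefSeq's, build GRCr8, and the array's own annotation is on an older assembly. Tables and plots used Python 3.11.15, pandas 2.3.3 and matplotlib 3.10.9.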

Additional observations from a re-analysis of the deposited data

How the results depend on the processing

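Over 19 alternatives and 8 genes, 144 of 152 changes kept their sign, 8 reversed and 0 passed the threshold (smallest limma adjusted p = 0.217). Not all of these could reverse. The other filters on dim probes, every probe as its own feature, the intensity trend and the replicate block left the 8 changes as they were. Slide as a fixed block and slide 1 alone gave the same 8 changes as each other, so the counts do not measure 19 separate checks. Hmgcs1, Lss and Cyp51 stayed positive and Idi1 and Fdft1 negative in all 19. The mean of all probes put Insig1 at -0.030, and brought Hmgcs1 from 0.28 to 0.11, Fdft1 from -0.18 to -0.035 and the median of the 8 genes from 0.14 to 0.07. With slide as a fixed block and on slide 1 alone, both of which rest on DNPT replicate 1, Sqle was at -0.054, Fdps at -0.0026 and Insig1 at -0.069, and the median of the 8 genes went from 0.14 to -0.028. With each sample left out in turn, Insig1 ranged from -0.0015 (without DNPT replicate 2) to 0.21, Sqle from 0.03 to 0.24, Cyp51 from 0.08 to 0.23 and the median from 0.05 to 0.20, each lowest without DNPT replicate 2. Lss ranged from 0.07 (without vehicle replicate 1) to 0.30 (without vehicle replicate 2). The count of features past the threshold was 0, and 2 with normexp, 1 with slide as a block and 1 on slide 1 alone; with each sample left out it ranged from 0 to 640 (3 without vehicle replicate 2, and 37 higher and 603 lower without DNPT replicate 1, when both remaining DNPT rats were on slide 2). Unadjusted, 4227 features had p under 0.05, and 2393 to 8737 did over the 19 alternatives. The count of the 8 genes past the threshold was 0 in all 19. With the replicate number as a block the counts were 0 features and 0 of the 8 genes. The labels do not say that the numbers pair animals, so they were not taken as pairs. Same-numbered rats did not deviate together (correlations of -0.18, -0.06 and -0.18 over features, and no rat correlated best with its own number). Deviations of 3 rats from their group mean sum to 0, so these correlations are tied to each other and cannot decide on pairing. The causes of these differences were not tested.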
